A study of Rattus norvegicus with 10 samples.

Results

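Nuclear receptors are transcription factors that bind small lipophilic ligands, among them fatty acids, oxysterols, bile acids, retinoids, steroid and thyroid hormones, and then act on target genes. The 33 receptor genes described here were taken as a fixed list of symbols, and every probe set that the platform annotation gave to one of these symbols was used, whatever its signal. This gave 59 probe sets, each with a single symbol, out of 31099 on the array. By symbol these are 33 of 14021 genes with a probe set of their own. Liver RNA was measured on 10 Affymetrix arrays, 2 for each of 5 diets, from fasted male Wistar rats, an outbred laboratory strain. High-fat diets made of fish oil (named as cod liver oil in the design description), lard, olive oil or coconut fat supplied 42% of energy as fat, and standard chow, for which no fat share was given, was the fifth diet. All animals ate their diet for 12 weeks and were fasted overnight, so the fasted state is shared by every group. The labels give no age and do not state whether an array holds 1 animal or a pool, so the p-values below cover only the spread between these samples. The type of fat was the subject of the study, and the question asked of each receptor was whether its signal differed between chow and a high-fat diet, or between the high-fat diets.

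In liver these receptors form a network. Most of the lipid-sensing members (the PPARs, LXRs, FXR, PXR, CAR and the vitamin D receptor) bind DNA as dimers with a retinoid X receptor (RXR), on repeats of the half-site AGGTCA or close variants of it. Hnf4a sustains hepatocyte identity, and Nr0b2 (SHP) lacks a DNA-binding domain and represses other receptors. The steroid receptors bind as homodimers. Their activity is set largely by ligand, cofactors and modification of the protein, none of which an RNA array measures.

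Signals are MAS5 values on a linear scale, and the deposited values have a 2% trimmed mean of 100 on each array. The median signal ran from 28.7 to 31.9 on 9 arrays and was 36.8 on the second lard array. The 7 hepatocyte markers measured, Alb and Ttr among them, were above background on every array. Their summed signal was 58353 to 61444 on fish oil, 57130 to 58405 on lard, 57013 to 66409 on olive oil, 61124 to 64213 on coconut fat and 56679 to 58677 on chow. Kupffer cell markers were above background too, and their 6 genes summed to 1645 and 1677 on fish oil, 1987 to 2301 on lard, 1833 to 2620 on olive oil and 1705 to 1848 on coconut fat, against 2198 and 2489 on chow. The 5 blood cell markers summed to 4369 and 5823 on fish oil, 7254 to 7484 on lard, 5643 to 10252 on olive oil and 8337 to 8839 on coconut fat, against 6232 and 7586 on chow. The 5 adipocyte markers summed to 598.4 and 659.4 on fish oil, 491.2 to 565.1 on lard, 441.2 to 566 on olive oil and 539.1 to 639.3 on coconut fat, against 353.8 and 478.3 on chow. Only 1 of these 5 was above background on all arrays, and only Cidec was bright enough to be tested. Endothelial markers (6 genes) summed to 1727 to 1832 on fish oil and 1405 to 1535 on lard. They summed to 1574 to 1653 on olive oil, 1775 to 1787 on coconut fat and 1633 to 1909 on chow. The 8 stellate cell markers summed to 1033 to 1052 on fish oil, 1024 to 1139 on lard and 1172.5 to 1306 on olive oil. Those sums were 1035 to 1119 on coconut fat and 1161 to 1162 on chow. Cholangiocyte markers, of which 2 of 5 were above background on all arrays, summed to between 124.1 and 306.9 over all arrays. The part of these lists in the results was not tested. Liver tissue holds several cell types, and fewer cells of a type and less RNA per cell cannot be told apart in it.

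Of the 33 receptors, 27 were above background in liver, 6 were above it on some arrays only, and 0 stayed below it on all. A probe set counted as above background on an array when its signal exceeded 12.8, the highest signal of the 3 probe sets for the bacterial trp gene. A receptor counted when at least 1 of its probe sets passed on all 10 arrays. Of the 59 receptor probe sets 39 passed on all 10 arrays (66.1%), compared with 49% of all probe sets. Few probe sets passed on no array, 2 of the 59 and 2273 of all 31042. These shares are per probe set and not per gene, and a receptor with several probe sets counts by any 1 of them. The bound lay below the median signal of every array (28.7 to 36.8). No detection calls were used, and signals are not compared between probe sets, since each has its own affinity.

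The 6 receptors that were above background on part of the arrays were Ppara, Vdr, Rarg, Nr2f1, Nr2c2 and Nr4a3. Ppara, the fatty acid receptor of hepatocytes, has a single probe set, which exceeded the bound on 8 of 10 arrays. Vdr, the vitamin D receptor, also exceeded it on 8 arrays, with signals of 2.6 to 73.1. Rarg, a retinoic acid receptor, reached 9 arrays on the brighter of 2 probe sets, with a range of 9.8 to 24.7. Nr4a3, an orphan receptor of the immediate early genes, also reached 9 arrays on the brightest of 3 probe sets (10.4 to 38.1). Nr2f1 (COUP-TF1) exceeded the bound on 6 arrays, between 0.8 and 33.4. Nr2c2 (TR4) did so on only 2 arrays, with a range of 1.8 to 22.1. For Rarg, Nr2f1 and Nr2c2 all probe sets were too dim to be tested.

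**Figure D1:**
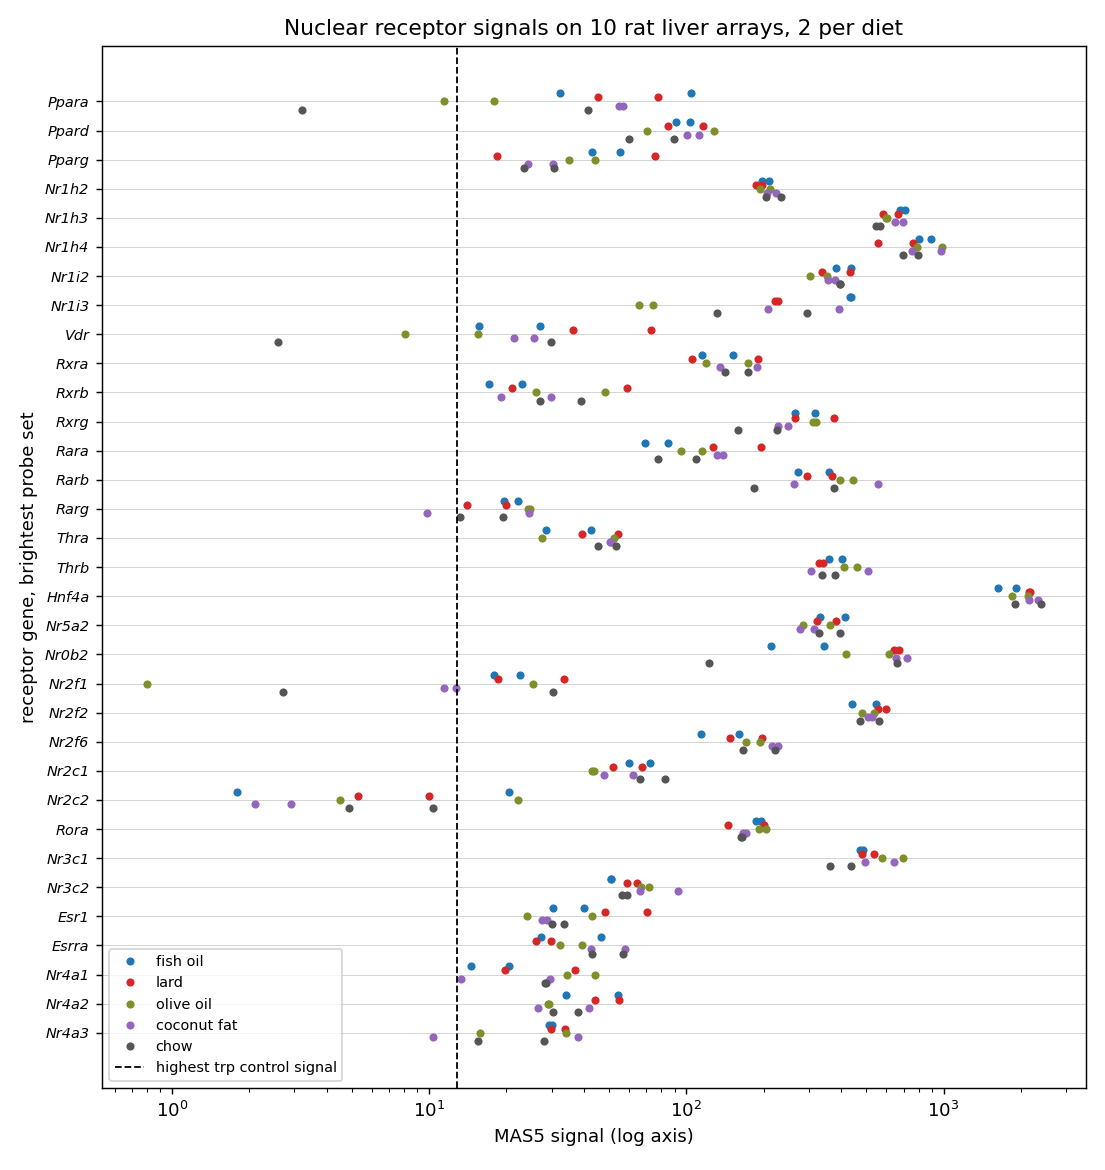
MAS5 signal (log axis) of the brightest probe set of each of the 33 receptors on 10 arrays, coloured by diet, with a dashed line at 12.8, the highest signal of the trp control probe sets. The points of 27 receptors lie to the right of the line on all arrays, and those of Nr2c2 lie to its left on 8 of 10.

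Several receptors had probe sets that disagreed about presence. Nr2f6, an orphan receptor of the COUP-TF group, has 5 probe sets, of which 3 were above background on all arrays and 1 ranged from 1.1 to 15.9. Thra, a thyroid hormone receptor, has 3, with 27.6 to 54.3 on the brightest and 0.2 to 6.8 on the dimmest. Nr1h2 (LXR-beta), an oxysterol receptor, ranged from 186.7 to 233.4 on 1 probe set and from 2.6 to 16 on the other. Both probe sets of Rxrg, the retinoid X receptor best known from muscle and brain, were above background, 1 of them barely (13 to 46.3). Thrb, the main thyroid hormone receptor of hepatocytes, was above background with all 4 of its probe sets, and Hnf4a and Nr5a2 (LRH-1, a regulator of bile acid synthesis) with all 3.

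Diet comparisons covered the 44 receptor probe sets, from 30 receptors, that remained after the 40% of all probe sets with the lowest mean signal had been left out. Values were analysed as log2(signal + 3.1) with limma, 1 mean per diet, and p-values were adjusted by Benjamini-Hochberg over all 18623 tested probe sets, with a threshold of 0.05. At that threshold 0 of 44 receptor probe sets differed in the F-test for any difference among the 5 diets, and 5 had an unadjusted p under 0.05 (11.4%). Over the whole table these shares were 0.14% and 9.51%, so that the receptors' share lay near the background. The 5 unadjusted ones belonged to Nr1i3, Rara, Thra, Rxrg and Nr3c1.

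Against chow, 0 of 44 receptor probe sets passed on fish oil, lard, olive oil or coconut fat, where 0.183%, 0.0161%, 0.0805% and 0% of all tested probe sets passed. At an unadjusted p under 0.05 there were 5 on fish oil, 6 on lard, 4 on olive oil and 4 on coconut fat, where all tested probe sets had shares of 7.66%, 7.94%, 8.34% and 5.48%. By direction, 4 were higher and 1 lower on fish oil (3.55% and 4.11% of all), and 6 were higher and 0 lower on lard (4.65% and 3.29%). Olive oil had 2 higher and 2 lower (4.32% and 4.03%), and coconut fat 3 higher and 1 lower (2.57% and 2.91%). The average of the 4 high-fat diets against chow gave 0 receptor calls (0.0644% of all probe sets) and 4 unadjusted (6.69%), 3 of them higher and 1 lower (3.86% and 2.83%). Fish oil against the average of the other 3 high-fat diets gave 0 calls (0.44% of all) and 5 unadjusted (11.8%), 1 higher and 4 lower (4.91% and 6.89%). Coconut fat against the average of lard and olive oil gave 0 calls (0% of all) and 2 unadjusted (6.77%), 1 in each direction (2.45% higher and 4.32% lower in all). Olive oil against lard gave 0 calls (0% of all) and 5 unadjusted (6.27%), 1 higher and 4 lower (2.55% and 3.73%).

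Arrays of 2 diets were fully apart for many probe sets, as 2 arrays against 2 often are. Against chow, 10 receptor probe sets were higher and 8 lower on both fish oil arrays, where 17.5% and 19.1% of all probe sets were. For lard these numbers were 13 higher and 3 lower, with 23% and 16.6% over all. For olive oil they were 11 and 7, with 20.4% and 17.6%, and for coconut fat 10 and 6, with 17.1% and 19.2%. Coconut fat was apart from all lard and olive oil arrays for 2 higher and 2 lower receptor probe sets, with 6.51% and 9.38% over all. The comparisons with chow share its 2 arrays and are not independent of each other.

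**Figure D2:**
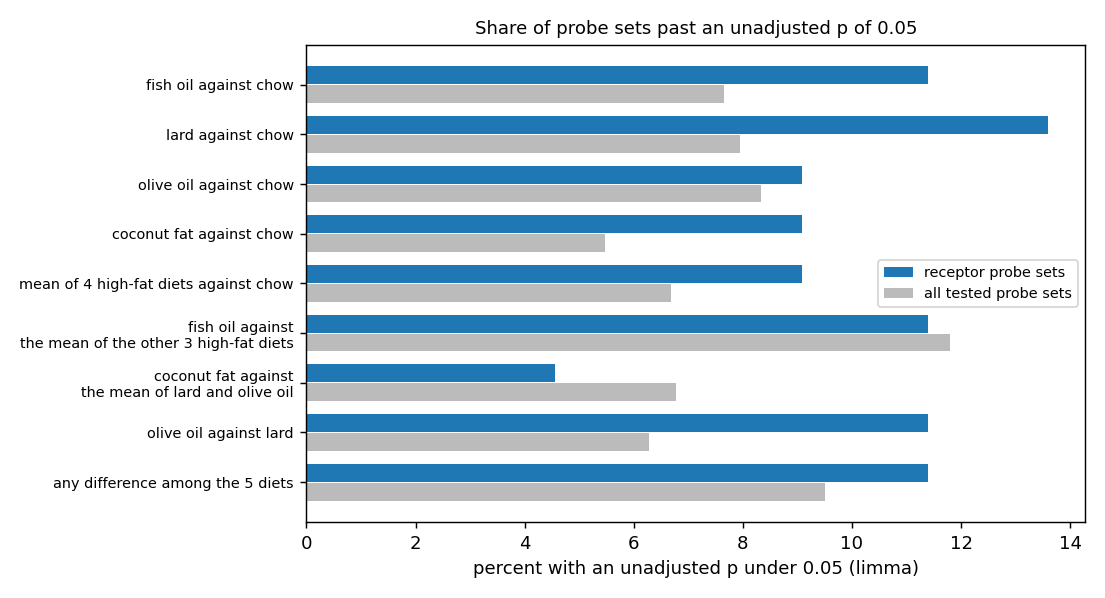
Percent of probe sets with an unadjusted limma p under 0.05 in 8 comparisons and the F-test, for the 44 receptor probe sets (blue) and all 18623 tested (grey). The receptor bars run from 4.55% to 13.6% and the grey bars from 5.48% to 11.8%.

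A missing call does not show that a receptor had the same level in 2 diets, and the width of the intervals gives what 2 arrays per diet could resolve. For fish oil against chow the 95% confidence interval of a log2 fold change extended by a median of 0.61 to each side (range 0.30 to 1.73). For 26 of 44 probe sets this interval lay wholly between -1 and 1, that is, within a doubling or halving. For fish oil against the other 3 high-fat diets the median was 0.50, and 31 intervals lay within those limits. The median log2 difference of the receptor probe sets was -0.02 on fish oil, 0.08 on lard, 0.01 on olive oil and 0.05 on coconut fat against chow. For all tested probe sets it was -0.01, 0.04, 0.02 and -0.02.

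The receptor with the smallest p was Nr1i3, the constitutive androstane receptor (CAR), which drives genes of drug and bilirubin clearance in hepatocytes. Its signal was 435.8 and 432.3 on fish oil, 227.2 and 220.8 on lard, 74.3 and 65.3 on olive oil and 207.7 and 393.8 on coconut fat, against 294.2 and 131.4 on chow. The fish oil arrays lay above all 8 others and the olive oil arrays below all 8 others, while the 2 coconut fat arrays and the 2 chow arrays each stood far apart. In limma the F-test gave an unadjusted p of 0.000184 and an adjusted p of 0.0746, so Nr1i3 did not pass. Set against the other 3 high-fat diets, fish oil was 2.6-fold higher (log2 difference 1.38, SE 0.29, 95% interval 0.75 to 2.00, limma adjusted p = 0.0764). Olive oil against lard had a log2 difference of -1.64 (SE 0.35, limma adjusted p = 0.669) and olive oil against chow -1.46 (limma adjusted p = 0.265). The comparison of fish oil with the other 3 did pass in limma when only the arrays of the 4 high-fat diets were fitted (adjusted p = 0.0241), without the first or the second chow array (0.026 and 0.0254) or with array 2 of coconut fat left out (0.0465). Its fold change did not depend on chow, and the chow arrays entered only through the shared spread. Fish oil against chow was 1.13 on the log2 scale (limma adjusted p = 0.404), with 1.70 when chow array 1 was left out and 0.56 when chow array 2 was. Olive oil against chow was likewise -0.89 and -2.03.

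Nr1i3 has 1 probe set, so no second one could be set beside it. Of the 44 receptor probe sets, 1 was higher and 3 were lower on both fish oil arrays than on all 6 arrays of the other high-fat diets, where 5.98% and 6.82% of all tested probe sets were so placed. The higher one was Nr1i3 and the lower ones were Nr0b2, Rara and Nr3c2. The plot of 6 receptors by diet shows Nr1i3, Nr0b2 and Rara, beside Nr3c1, Rxrg and Ppara, and Nr3c2 follows with the steroid receptors.

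**Figure D3:**
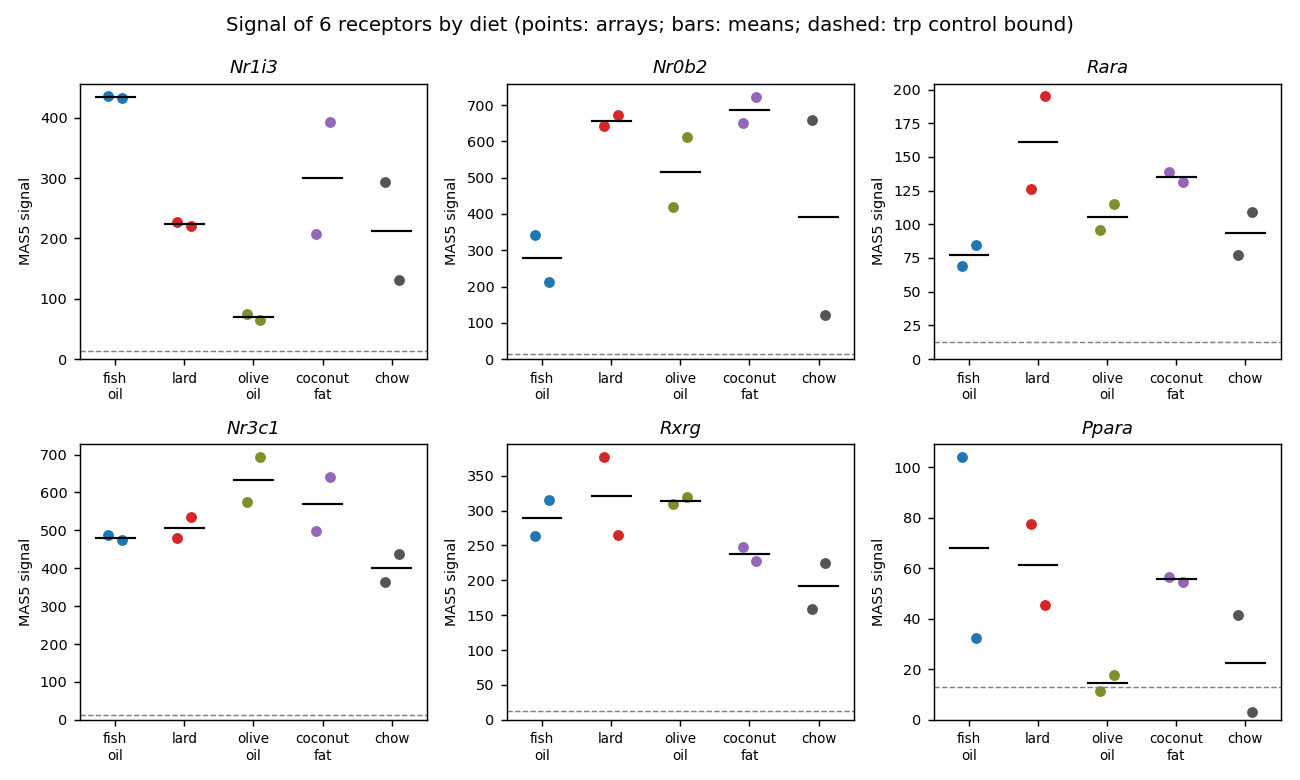
MAS5 signal of 6 receptors by diet: points are the 2 arrays, black bars their means and the dashed line the background bound of 12.8. Nr1i3 is highest on fish oil (435.8 and 432.3) and lowest on olive oil (74.3 and 65.3), and the 2 chow arrays of Nr0b2 stand at 659.7 and 122.7.

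Nr0b2, the small heterodimer partner that FXR induces and that represses bile acid synthesis, had 342.4 and 213.2 on fish oil, 641.3 and 673.3 on lard, 419.1 and 612.4 on olive oil and 651 and 723.9 on coconut fat, against 659.7 and 122.7 on chow. Both fish oil arrays lay below every array of the other high-fat diets, whereas the chow arrays spanned almost the whole range. Fish oil was 2.25-fold lower than the other 3 high-fat diets (log2 difference -1.17, SE 0.46, 95% interval -2.17 to -0.17, limma adjusted p = 0.34). It passed when only the 4 high-fat diets were fitted (limma adjusted p = 0.0308). That fit and those without either chow array all drop the spread between the 2 chow arrays. The log2 difference was -1.17 in each of them, so they are not separate checks. Against chow the log2 fold change on fish oil was -0.08 with an interval of -1.31 to 1.15. It was 1.12 without chow array 1 and -1.28 without chow array 2, so its direction rests on the chow array kept. Without the first chow array coconut fat against chow passed for Nr0b2 at a log2 difference of 2.45 (limma adjusted p = 0.041), compared with 1.26 and an adjusted p of 0.911 on all arrays and 0.057 without chow array 2.

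The sequences just before the transcription start of these 2 genes are given because these 2 receptors were the ones called under any of the alternative settings tried. They come from RefSeq (build GRCr8, plus strand, 250 bases ending at the base before the start, 5′ to 3′). Capitals mark GGTCA, the core of the receptor half-site, and TCAAGG, the start of the extended site that Nr5a2 recognises, on either strand. The first window is chr13:86165170-86165419 and the second chr5:151062910-151063159.
Nr1i3: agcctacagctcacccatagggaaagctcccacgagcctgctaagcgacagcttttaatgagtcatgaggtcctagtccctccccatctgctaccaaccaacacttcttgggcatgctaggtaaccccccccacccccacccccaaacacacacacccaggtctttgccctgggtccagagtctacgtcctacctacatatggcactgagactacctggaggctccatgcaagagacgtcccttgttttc
Nr0b2: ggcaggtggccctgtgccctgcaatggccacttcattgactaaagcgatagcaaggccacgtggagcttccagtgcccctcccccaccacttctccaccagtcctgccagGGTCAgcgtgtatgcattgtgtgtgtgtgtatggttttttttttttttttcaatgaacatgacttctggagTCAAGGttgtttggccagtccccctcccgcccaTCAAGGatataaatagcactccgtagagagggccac
The Nr1i3 window held neither motif. The Nr0b2 window held 1 GGTCA and 2 TCAAGG matches. Promoter windows were present for 28 of the 33 receptors, 33 windows in all, and Ppard, Nr1h4, Nr2f2, Nr3c2 and Nr4a3 had none in the table. GGTCA stood in 11 of these 33 windows (33.3%) and in 35.4% of all 33469 windows of the same length. AGGTCA, which contains GGTCA, stood in 2 (6.06%) and 14.1%, and TCAAGG in 2 (6.06%) and 12.6%. A match is a description of the letters and does not show binding.

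Of the retinoid receptors, Rara had the next-smallest p of the F-test. Rara, the retinoic acid receptor alpha, had 69 and 84.9 on fish oil, 126.5 and 195.3 on lard, 95.8 and 115 on olive oil and 139.2 and 131.4 on coconut fat, against 77.5 and 109 on chow. Both fish oil arrays were below all arrays of the other high-fat diets, and they overlapped chow. Fish oil was 1.68-fold lower than the other 3 (log2 difference -0.75, SE 0.21, limma adjusted p = 0.184), and this did not pass. Rxrg had 263.7 and 315.6 on fish oil, 376.8 and 264.5 on lard, 309.8 and 318.9 on olive oil and 248.2 and 227.1 on coconut fat, against 159.5 and 225.1 on chow. All 8 high-fat arrays were above both chow arrays, by as little as 2 signal units in 1 case. The mean of the 4 high-fat diets was 1.51-fold above chow (log2 difference 0.59, SE 0.17, limma adjusted p = 0.455), while the dimmer Rxrg probe set had -0.07 in the same comparison.

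Rxra, the retinoid X receptor most abundant in liver, had 115 and 152.1 on fish oil, 105.3 and 190.2 on lard, 118.9 and 173.4 on olive oil and 188.7 and 135 on coconut fat, against 140.9 and 174.1 on chow. Arrays of every diet overlapped chow. The log2 difference of fish oil against chow was -0.24, with an interval of -0.91 to 0.43. Rxrb, the broadly expressed RXR, lay between 17.1 and 58.6, and Rarb, a retinoic acid receptor whose own gene responds to retinoic acid, between 183.6 and 558.3. The highest Rarb value came from 1 coconut fat array and the other coconut fat array had 262.9.

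Among the fatty acid receptors, Ppara had 104.1 and 32.3 on fish oil, 77.5 and 45.4 on lard, 11.4 and 17.9 on olive oil and 56.6 and 54.7 on coconut fat, against 41.6 and 3.2 on chow. On olive oil and on chow 1 array each was below the background bound. The log2 fold changes against chow were 1.88 on fish oil, 1.90 on lard, 0.06 on olive oil and 1.81 on coconut fat, each with an SE of 0.78, and 0 of them passed (limma adjusted p = 0.597, 0.591, 0.992 and 0.908). Their intervals were the widest beside those of Vdr, reaching from 0.15 to 3.60 for fish oil. Leaving out chow array 1 gave 3.29 on fish oil, 3.31 on lard, 1.47 on olive oil and 3.22 on coconut fat. Leaving out chow array 2, the one below background, gave 0.46 on fish oil, 0.48 on lard, -1.36 on olive oil and 0.39 on coconut fat. Ppard, a broadly expressed fatty acid receptor, ranged from 60.1 to 127.6 on its brighter probe set, and Pparg, the adipogenic receptor, from 18.3 to 75.9, with both extremes on lard arrays.

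Oxysterol, bile acid and xenobiotic sensors other than Nr1i3 had narrower ranges, apart from Vdr. Nr1h3 (LXR-alpha) had 678.7 and 709.5 on fish oil, 662.5 and 583.3 on lard, 605.5 and 597.8 on olive oil and 694.2 and 649.9 on coconut fat, against 566.9 and 546.9 on chow. All 8 high-fat arrays were above both chow arrays, yet the mean difference was 0.21 on the log2 scale (SE 0.11, limma adjusted p = 0.785). Nr1h4 (FXR), the bile acid receptor, had 892.2 and 802.9 on fish oil, 759 and 553.9 on lard, 788.3 and 983.5 on olive oil and 756.3 and 974.3 on coconut fat, against 697.1 and 793.6 on chow. Its intervals against chow lay between -0.62 and 0.67 for each of the 4 high-fat diets. Nr1i2 (PXR), which senses drugs and bile acids, had 436 and 381.3 on fish oil, 431 and 338.2 on lard, 301.4 and 351.4 on olive oil and 377.9 and 355.6 on coconut fat, against 397 and 394.2 on chow. Both olive oil arrays were below both chow arrays, as Nr1i3 was, but the log2 fold change was -0.28 with an interval of -0.65 to 0.09. Vdr had 26.9 and 15.7 on fish oil, 36.3 and 73.1 on lard, 8.1 and 15.5 on olive oil and 21.4 and 25.6 on coconut fat, against 29.9 and 2.6 on chow. Both lard arrays were above all others, and lard against chow was 2.00 on the log2 scale (interval 0.27 to 3.73, limma adjusted p = 0.569). It was 3.27 without chow array 1 and 0.73 without chow array 2, which was below background.

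**Figure D4:**
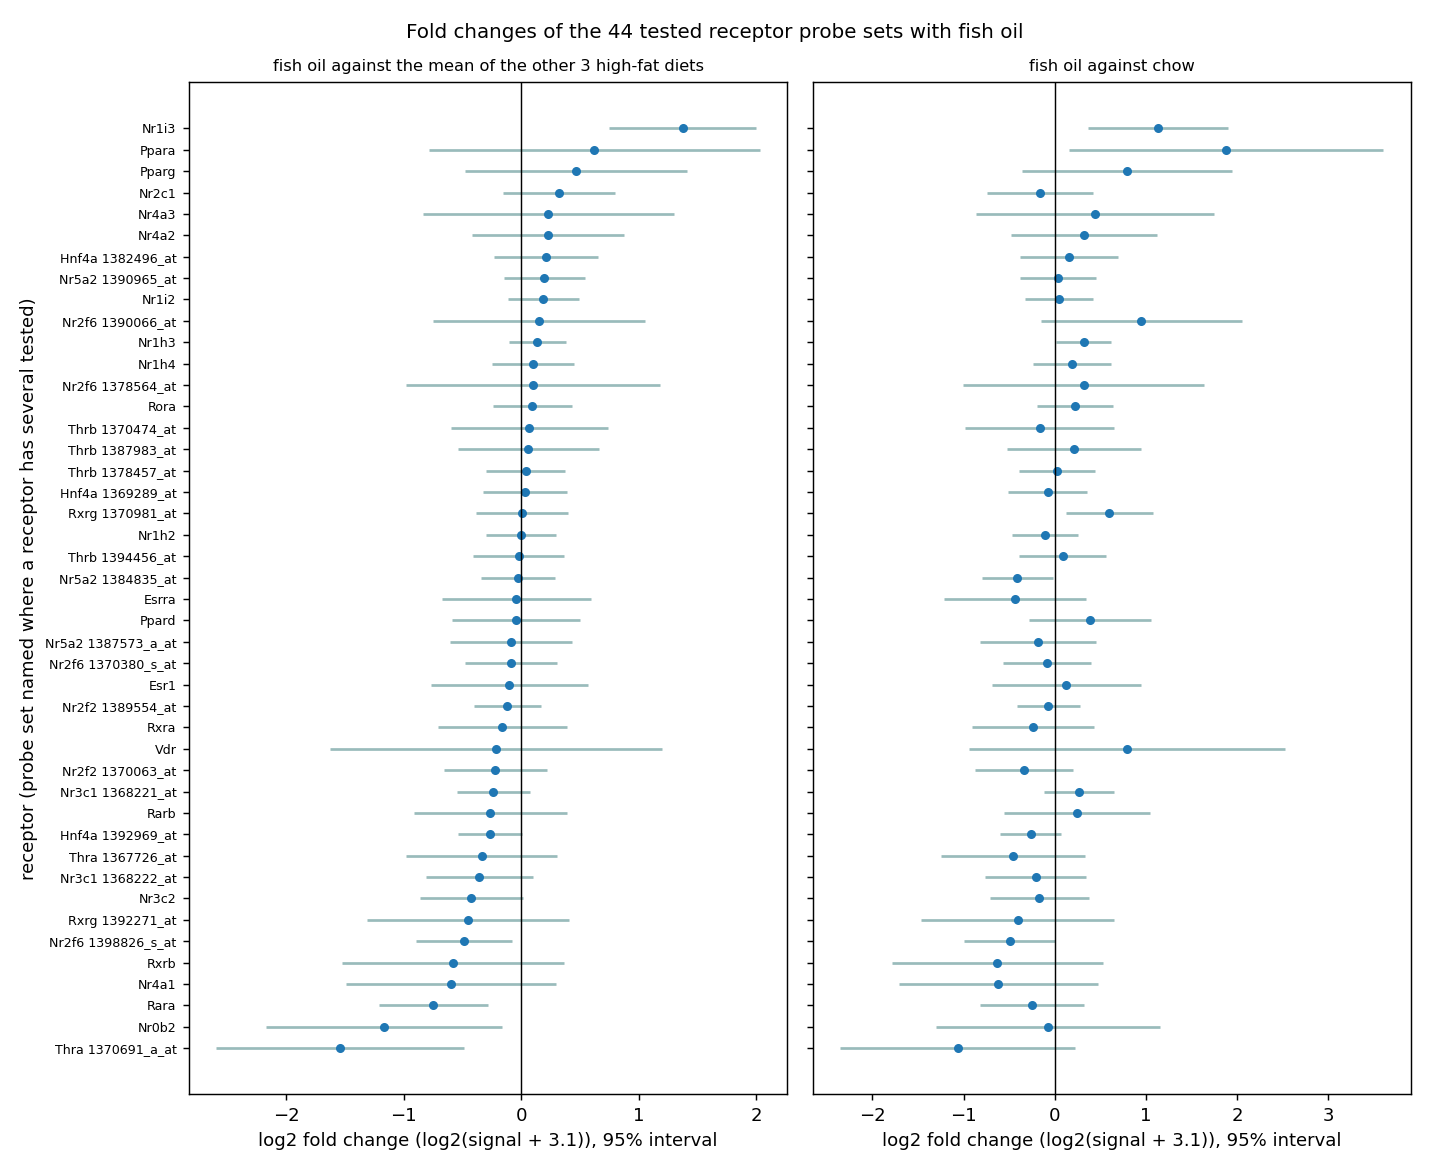
Log2 fold change (point) and 95% interval (line) of the 44 tested receptor probe sets for fish oil against the average of the other 3 high-fat diets (left) and against chow (right), in the order of the left panel. Nr1i3 stands at 1.38 and 1.13, Nr0b2 at -1.17 and -0.08, and 0 probe sets passed the adjusted threshold in either comparison.

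Hnf4a, required for hepatocyte gene expression, had 1911 and 1630 on fish oil, 2160 and 2152 on lard, 2125 and 1850 on olive oil and 2146 and 2338 on coconut fat, against 2388 and 1888 on chow on its brightest probe set. Diets overlapped chow, and over the 3 probe sets the log2 fold changes of fish oil against chow were -0.27, -0.08 and 0.16. Of the 3 Nr5a2 probe sets, 1 had 209.8 and 217.2 on fish oil, 228.3 and 217.7 on lard, 242.4 and 196.1 on olive oil and 191.4 and 234.6 on coconut fat, against 278.3 and 291.9 on chow. Its 8 high-fat arrays all lay below both chow arrays (log2 difference -0.39, SE 0.14, limma adjusted p = 0.616), but the other 2 Nr5a2 probe sets, at -0.11 and -0.12, overlapped. In all, 3 receptor probe sets had all 8 high-fat arrays above chow (Nr1h3, Nr3c1 and Rxrg) and 1 had them below (Nr5a2), where 2.57% and 2.5% of all tested probe sets did.

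Nr3c1, the glucocorticoid receptor, had 486.6 and 473.4 on fish oil, 480.6 and 534.5 on lard, 575.2 and 693 on olive oil and 497.3 and 641.5 on coconut fat, against 362.5 and 437 on chow on the brighter probe set. Every high-fat array was above both chow arrays. Olive oil against chow had a log2 difference of 0.66 (SE 0.18, limma adjusted p = 0.32) and the mean of the 4 high-fat diets 0.44 (SE 0.14, limma adjusted p = 0.495), and neither passed. The dimmer probe set had 0.18 and 0.06 there and overlapped chow. Nr3c2, the mineralocorticoid receptor, had 51 and 50.9 on fish oil, while the 6 other high-fat arrays lay between 58.9 and 93 and chow at 59 and 56.4. Fish oil was below the other 3 high-fat diets by a log2 difference of -0.42 (SE 0.20, limma adjusted p = 0.446). Esr1, the estrogen receptor alpha, had 40.1 and 30.4 on fish oil, 70.6 and 48.4 on lard, 42.9 and 24 on olive oil and 28.8 and 27.5 on coconut fat, against 33.5 and 30.1 on chow. Lard was highest on both arrays, with a log2 fold change against chow of 0.82 (limma adjusted p = 0.627).

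The thyroid hormone receptor Thra was below the background bound on both fish oil arrays for 1 of its 2 tested probe sets. That probe set had 7 and 10.7 on fish oil, 31.5 and 43.3 on lard, 50.5 and 49.6 on olive oil and 8 and 29.5 on coconut fat, against 28.9 and 16 on chow. Fish oil against the other 3 high-fat diets did not pass (limma adjusted p = 0.226). With fish oil set at the background bound of 12.8, it was 2.38-fold lower than those diets. This is not a strict minimum, because 1 coconut fat array, at 8, was also below the bound and was used as measured. The brighter Thra probe set had 42.5 and 28.6 on fish oil, against 53.1 and 45.3 on chow, and a log2 difference of -0.34 against the other 3 high-fat diets. For Thrb the log2 differences lay between -0.02 and 0.07 over 4 probe sets in that comparison.

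Of the orphan receptors, Nr2c1 (TR2) had 72.4 and 59.7 on fish oil, 67.1 and 52.1 on lard, 43.9 and 43 on olive oil and 61.9 and 47.9 on coconut fat, against 82.9 and 66.2 on chow. Olive oil was lowest, with a log2 difference of -0.73 against chow (limma adjusted p = 0.505). The brightest Nr2f6 probe set had 114.4 and 159.8 on fish oil, 196.5 and 147.6 on lard, 193.4 and 171.4 on olive oil and 215.4 and 228.1 on coconut fat, against 220.9 and 166.7 on chow. Its log2 difference of fish oil against the other 3 was -0.48 (limma adjusted p = 0.33), and the other 3 tested probe sets of this gene gave -0.09 to 0.15. Nr2f2 (COUP-TF2) lay between 441.8 and 597.2 and Rora, a receptor of the circadian clock, between 145.7 and 203.9. Esrra, which acts on mitochondrial genes, lay between 26 and 57.6. The immediate early receptors Nr4a1 and Nr4a2 were dim, at 13.3 to 44.2 and 26.6 to 54.6 on their brightest probe sets.

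Olive oil and lard arrays did not overlap for 7 receptor probe sets higher and 15 lower on olive oil, where 15.7% and 19% of all tested probe sets were so placed. Nr1i3, Ppara and Vdr were among the lower ones, at log2 fold changes of -1.64, -1.84 and -1.92 (limma adjusted p = 0.669, 0.777 and 0.761). On olive oil 1 of 2 arrays was above the background bound for Ppara and 1 of 2 for Vdr. The second lard array, which had the highest median signal, gave the highest Vdr value of all arrays, and its part in the count was not tested.

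Genes that act with the receptors were described from lists chosen with earlier results of these data known. Of 18 coregulators, 15 were tested with 32 probe sets and 0 passed in any comparison or in the F-test, where 3 had an unadjusted p under 0.05 (9.38%, compared with 9.51% of all). Lpin1, a phosphatidate phosphatase and coactivator, was at 0.71 on the log2 scale in coconut fat against lard and olive oil (limma adjusted p = 0.594). Of 15 other nuclear receptors, 5 were tested with 8 probe sets and 0 passed in any comparison or in the F-test, where 0 had an unadjusted p under 0.05. The clock repressor Nr1d2 had the smallest p, with a log2 difference of -0.73 for fish oil against the other 3 high-fat diets (limma adjusted p = 0.232). Esrrg, an orphan receptor of energy metabolism, had 0.57 there (limma adjusted p = 0.283). Its other tested probe set had 0.17, with overlapping arrays (limma adjusted p = 0.823).

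Some probe sets from the target lists of PPAR-alpha, PXR and CAR, retinoic acid receptors and the glucocorticoid receptor did pass in some comparisons. In the retinoic acid receptor list the calls were those of Aldh1a1 alone. Of 24 PPAR-alpha targets listed, 20 were analysed here. Of 28 probe sets (20 genes) of the PPAR-alpha targets, 7 rose on fish oil against chow and 7 against the other 3 high-fat diets, and 0 fell. Over all tested probe sets 0.183% and 0.44% passed there in either direction. The median log2 fold change was 0.57 against chow and 0.49 against the other 3, compared with -0.01 and -0.02 over all tested probe sets. Ehhadh, which catalyses middle steps of beta-oxidation in peroxisomes, had 7370 and 6386 on fish oil, 2397 and 2526 on lard, 2238 and 1736 on olive oil and 3319 and 2767 on coconut fat, against 2512 and 2259 on chow. It rose 2.8-fold against the other 3 (limma adjusted p = 0.000716). Acot1, Pex11a and Acot2, a thioesterase, a peroxisome growth factor and a second thioesterase, rose on fish oil against chow (limma adjusted p = 0.00125, 0.0321 and 0.0334), Acot1 at least 45.6-fold, a bound because both chow arrays were below background. Cpt2, the inner carnitine palmitoyltransferase of mitochondria, rose 1.68-fold against the other 3 (limma adjusted p = 0.0311). The Cpt2 call was lost when any 1 fish oil, lard or coconut fat array was left out. The Pex11a and Acot2 calls against chow were lost when any 1 fish oil or lard array or chow array 2 was left out and when only the arrays of fish oil and chow were fitted, Acot2 also without olive oil array 1. The Ehhadh call against chow was lost without chow array 2. The remaining 3 of the 7 against chow, named after their values were seen, were a pair of further Acot2 probe sets and Cd36, a fatty acid transporter (limma adjusted p = 0.0486, 0.05 and 0.05). These 3 were lost in 14, 15 and 13 of 18 alternative settings, quantile normalization among them. Against the other 3, the calls of Pex11a and the 3 Acot2 probe sets were lost in 3 to 11 of 18 settings, always without either fish oil array. When limma was run without an intensity trend, the target calls named here and below were lost, except those of Acot1. For Ppara itself the log2 fold change against the other 3 high-fat diets was 0.62, with an interval of -0.79 to 2.03.

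For PXR and CAR, 14 of 19 listed target genes were tested, with 17 probe sets. Cyp2b1, Cyp2b2, Gsta2 and Ugt1a1 had no probe set of their own, so the values below do not cover them. Cyp3a9, a cytochrome P450 of the drug-metabolising CYP3A group, had 1169 and 918.2 on fish oil, 562.3 and 703.5 on lard, 404.2 and 211.6 on olive oil and 656.8 and 812.5 on coconut fat, against 2454 and 2309 on chow. All high-fat arrays were below both chow arrays and the olive oil arrays were the lowest. Olive oil against chow fell 8.06-fold (log2 difference -3.01, SE 0.26, limma adjusted p = 0.00153), and the mean of the 4 high-fat diets fell 3.88-fold (limma adjusted p = 0.0151), a call lost without either chow array. Ces2c, a carboxylesterase, had 345.4 and 421.3 on fish oil, 125 and 104.3 on lard, 157.2 and 94.3 on olive oil and 198 and 276.1 on coconut fat, against 257.7 and 240.6 on chow. It rose 2.54-fold on fish oil against the other 3 high-fat diets (limma adjusted p = 0.0225), a call lost without either fish oil or either lard array. Against chow the 17 probe sets had a median log2 difference of 0.11 on fish oil (7 below 0), -0.49 on lard (15 below 0), -0.51 on olive oil (14 below 0) and -0.41 on coconut fat (11 below 0). Calls were 1 lower on olive oil and 0 on each of the other 3 diets. Of all tested probe sets 0.0805% passed on olive oil, and 0.183%, 0.0161% and 0% on fish oil, lard and coconut fat. At an unadjusted limma p under 0.05, 3 were lower on fish oil, 7 on lard, 7 on olive oil and 3 on coconut fat, and 2 were higher on fish oil. Over all tested probe sets 4.11%, 3.29%, 4.03% and 2.91% were lower on these diets, and 3.55% were higher on fish oil. The olive oil arrays against the lard arrays had a median of -0.02, with 11 below 0. On fish oil against the other 3 high-fat diets 1 rose and 13 were above 0 (median 0.62). Of all tested probe sets 0.44% passed there in either direction, and their median was -0.02. At an unadjusted limma p under 0.05, 9 of the 17 were higher and 0 lower there, where 4.91% and 6.89% of all were. Over all tested probe sets the medians against chow lay between -0.02 and 0.04.

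**Figure D5:**
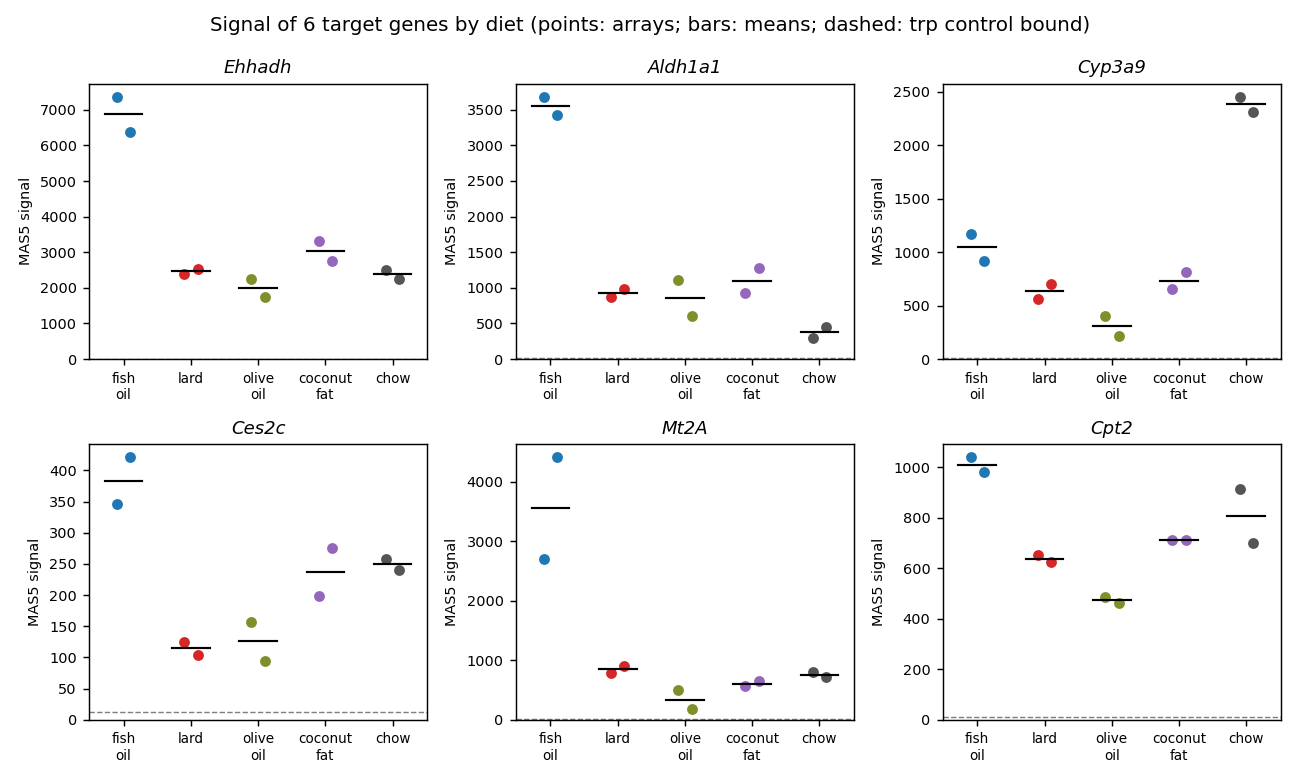
MAS5 signal of 6 genes from the target lists of PPAR-alpha (Ehhadh, Cpt2), retinoic acid receptors (Aldh1a1, a retinoid enzyme), PXR and CAR (Cyp3a9, Ces2c) and the glucocorticoid receptor (Mt2A) by diet: points are the 2 arrays, bars their means, the dashed line the background bound of 12.8. Cyp3a9 is highest on chow (2454 and 2309) and lowest on olive oil (404.2 and 211.6), while Ehhadh is highest on fish oil (7370 and 6386).

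Among 13 probe sets of retinoic acid receptor targets and retinoid enzymes, Aldh1a1, which makes retinoic acid, rose on fish oil against chow (3681 and 3418 on fish oil, against 290.5 and 454.9 on chow, limma adjusted p = 0.00125). It also rose against the other 3 high-fat diets (log2 difference 1.92, limma adjusted p = 0.00491), a call lost without either fish oil array. The average of the 4 high-fat diets was 3.57-fold above chow (limma adjusted p = 0.0186), a call lost without lard array 2 or chow array 1. On lard, olive oil and coconut fat alone Aldh1a1 was 2.53-, 2.24- and 2.97-fold above chow, with arrays apart and 0 calls (limma adjusted p = 0.369, 0.272 and 0.294). In the same list Cyp26a1, Rarb and Dhrs3 were at 0.75, 0.25 and 0.29 on the log2 scale on fish oil against chow. They did not pass (limma adjusted p = 0.796, 0.953 and 0.763). Rarres2 and Lrat were at -0.54 and -0.66 there (limma adjusted p = 0.274 and 0.576). At an unadjusted limma p under 0.05, 2 of the 13 probe sets were higher and 2 lower, where 3.55% and 4.11% of all were. Of 18 probe sets of glucocorticoid receptor targets, only 1, of the metallothionein Mt2A, passed on fish oil against the other 3 high-fat diets. It rose there (log2 difference 2.68, limma adjusted p = 0.00414), a call lost without the second fish oil array. Of all tested probe sets 0.44% passed in that comparison in either direction. The 18 had a median log2 difference of -0.05 there, with 6 above 0 and 12 below. For 21 LXR, 13 FXR and 12 thyroid hormone receptor target probe sets 0 passed in any comparison or in the F-test. In the F-test 6, 1 and 2 had an unadjusted limma p under 0.05 (28.6%, 7.69% and 16.7%, compared with 9.51% of all). The lists with calls had 16 of 28 for PPAR-alpha (57.1%) and 10 of 17 for PXR and CAR (58.8%) by that measure. The retinoic acid and glucocorticoid receptor lists had 3 of 13 (23.1%) and 4 of 18 (22.2%). The LXR targets had 10 probe sets higher and 1 lower at an unadjusted p under 0.05 on olive oil against chow, where 4.32% and 4.03% of all were, with a median log2 difference of 0.48. Their medians against chow were 0.14 on fish oil, 0.26 on lard and 0.46 on coconut fat. The thyroid hormone receptor targets (6 genes) had larger medians, 0.325 on fish oil, 0.92 on lard, 0.78 on olive oil and 0.67 on coconut fat. On olive oil 4 of their 12 probe sets were higher and 0 lower at an unadjusted limma p under 0.05, where 4.32% and 4.03% of all were. These probe sets belonged to Me1 and Thrsp only, and genes with several probe sets weigh more in these medians. Of the 12, 9 were above 0 on olive oil and 3 below, among them Dio1 at -0.21 and 1 Gpd2 probe set at -1.08. For the FXR targets the medians against chow lay between -0.10 and 0.04. The smallest p values were those of Srebf1, Abcb11 and Me1. Srebf1, the lipogenic factor SREBP-1, had 1.86 for coconut fat against chow (limma adjusted p = 0.595). Abcb11, the bile salt export pump, had -0.63 for fish oil against chow (limma adjusted p = 0.259). Me1, malic enzyme, had 2.11 for olive oil against chow (limma adjusted p = 0.17). All high-fat arrays lay below both chow arrays for Abcb11 (-0.51 on lard, -0.27 on olive oil, -0.54 on coconut fat). They lay above both for this Me1 probe set (1.31 on fish oil, 0.98 on lard, 0.99 on coconut fat). Over all tested probe sets 2.5% were so placed below chow and 2.57% above.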

How the data were processed

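Gene expression in rat liver was measured on 10 Affymetrix arrays. The deposited values are signal intensity per probe set on a linear scale, made by the authors with MAS5 per the submitters' processing notes; the version is not given in the sources used here, and the 2% trimmed mean of 100 was read from the values. Groups came from the sample titles. Of 31099 probe sets, 57 controls were removed, and the 40% with the lowest mean signal (up to 20.2) were left out, leaving 18623. Values became log2(signal + 3.1), 3.1 being the 10th percentile. Symbols came from the platform annotation, updated by gene identifier (20826 probe sets with 1 symbol, 436 with several, 9780 with none; 0 symbols changed). limma 3.58.1 in R 4.3.3 fitted all arrays with an intensity trend (5 residual and 6.09 prior degrees of freedom), and 8 comparisons and an F-test were adjusted by Benjamini-Hochberg. The pipeline was tested on simulated data.

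Members, lists and rules were chosen with earlier results of these data known. Per-array values were given for receptors with an unadjusted p under 0.01 in any comparison, filled up to 12 by the F-test, and for 8 central hepatic receptors; listed genes were named by call or smallest p. Precision is limited by the number of arrays. Alternatives were quantile normalization, another offset, other filters, no trend, the replicate number as a block, fits of only the diets compared and each array left out.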

Additional observations from a re-analysis of the deposited data

How the results depend on the processing

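Counts of receptor probe sets past the threshold were 0 in all 9 tests and stayed at 0 under quantile normalization, an offset at the 25th percentile, no filter, 60% left out, no intensity trend and the replicate block, and with a filter on the mean of the log2 values, which was chosen after seeing the data. The replicate block changed no receptor count, all at 0, and the arrays share only a number, since deviations from the diet means correlated at -0.03 to 0.07 over 10 pairs of diets. In a fit of only the diets compared, fish oil against the other 3 high-fat diets gave 2 (Nr1i3 and Nr0b2), and the other comparisons fitted so gave 0. With single arrays left out, fish oil against the other 3 high-fat diets ranged from 0 to 2, the F-test from 0 to 2 and coconut fat against chow from 0 to 1, and the other 6 tests gave 0; Nr1i3 and Nr0b2 were the receptors called. Chow arrays do not enter a fold change between high-fat diets, so leaving them out alters only the estimated spread and the number of arrays. With either chow array left out, more of all tested probe sets passed for fish oil against the other 3 and in the F-test. The Nr1i3 and Nr0b2 calls in those fits came with this wider rise. With array 2 of coconut fat left out, Nr1i3 passed for fish oil against the other 3, while fewer of all tested probe sets did. Of 78 named fold changes 17, all of receptors and not called, changed sign under an alternative. With single arrays left out, fish oil against chow ranged from -1.28 to 1.12 for Nr0b2 and from -0.31 to 0.16 and -0.17 to 0.48 for 2 Hnf4a probe sets. Against chow, Nr1h4 on lard ranged from -0.42 to 0.029, Ppara on olive oil from -1.36 to 1.47 (-0.029 under quantile normalization and -0.095 under the larger offset) and the dimmer Nr3c1 probe set on olive oil from -0.17 to 0.54. The 4 high-fat diets against chow ranged from -0.033 to 0.15 for that Nr3c1 probe set, from -0.25 to 0.023 for Nr5a2 and from -0.26 to 0.12 for the dimmer Rxrg probe set. Fish oil against the other 3 ranged from -0.18 to 1.42 for Ppara, over 3 Nr2f6 probe sets from -0.33 to 0.16, -0.20 to 0.41 and -0.13 to 0.44, and over 4 Thrb probe sets from -0.33 to 0.47, -0.056 to 0.13, -0.17 to 0.29 and -0.14 to 0.10. Under left-out arrays Srebf1 on coconut fat against chow ranged from 1.02 to 2.71 and Me1 on olive oil from 1.37 to 2.85. The number above background was 27, with 24 to 32 under other bounds and rules and 27 to 29 with single arrays left out. Without an intensity trend the target calls named here were lost except that of Acot1 against chow and against the other high-fat diets.

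With 2 arrays per diet and some signals below the background bound, the intervals of Ppara and Vdr against chow reached 1.73 to each side on the log2 scale. The labels do not say whether arrays stand for single animals.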
